A study of Apis mellifera with 24 samples.

Results

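A set of 70 honey bee (Apis mellifera) gene models, of 15313 in the gene tables, had their largest share of antisense piRNA-length reads in the spermatheca, the organ in which a queen keeps the sperm of her matings. For each gene, the antisense count of a tissue was divided by the sum of that tissue's antisense gene counts, and a gene was a member where this share was larger in spermatheca than in ovaries, eggs, testes and semen and where the spermatheca count was at least 20. Of the 310 genes that reached 20 spermatheca counts, 22.6% were members. The rule would have kept the 150 genes with the most counts, so all 70 stayed in, and none of the 30 genes that it leaves out by name passed its thresholds (0 of 30). Because antisense counts chose the members, their antisense values are a description, and only the sense counts, the positions of the genes and the features lying within them are measures that the rule did not use.

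The libraries came from commercial Australian honey bees with no engineered genotype and no treatment named in the labels, other than the mating state of the queens that laid the eggs. Ovaries and spermathecae (3 libraries each) came from adult laying queens, and semen (2 libraries) from adult drones, which by the methods was pooled over drones of a colony. Eggs (8 libraries) were taken under 24 hours after laying, 2 libraries each from fertilised and unfertilised eggs of mated queens and from eggs that virgin queens laid in worker and in drone cells (by the paper, such queens lay only after narcosis with carbon dioxide), and testes (8 libraries) came from drone pupae 24, 72 and 144 hours after pupation, with 3, 2 and 3 libraries. The tables hold a single column for each tissue, which combines these conditions, so every value below is the authors' pooled value, there is no spread between replicates, and no difference between tissues has a replicate check or a p-value. A mated queen's spermatheca holds her own tissue and stored sperm, and in such bulk samples fewer cells of a type and less RNA per cell cannot be told apart. The tables hold no messenger RNA levels, so the tissue labels were not checked against marker genes. The 3 ovary libraries shared a flow cell with 2 of the spermatheca libraries, the 8 testis libraries with the other spermatheca library, and the 2 semen libraries with 4 of the egg libraries, so in the comparisons with semen and eggs tissue and flow cell cannot be told apart.

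Piwi-interacting RNAs (piRNAs) are short RNAs that guide Piwi-family Argonaute proteins to complementary transcripts. They are known best from animal gonads, where they silence transposable elements (TEs), and in insects they are also found in body tissues. A piRNA antisense to a gene can pair with that gene's transcript, whereas a sense piRNA has the sequence of the transcript itself. The reads counted here were selected by length (26 to 31 nt) and by the removal of other known RNAs, not by binding to a Piwi protein, and genes were counted over their whole span, introns and untranslated regions included. A read antisense to 1 gene model can therefore also be a sense read of another gene, or of a TE, that lies in the same span on the other strand.

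Over all genes the antisense table held 3268356 counts for ovaries, 5045727 for eggs, 392409 for testes, 32551 for semen and 553655 for spermatheca. The members took 1.45% of the spermatheca sum (95% Wilson interval 1.42 to 1.48), against 0.175% in ovaries, 0.159% in eggs, 0.256% in testes and 0.154% (0.117 to 0.202) in semen. These intervals cover counting error only, since amplified reads that carry no molecular identifier may be copies of 1 molecule. The members' counts were very uneven. Of their 8035 spermatheca counts, 48.2% fell on GB43496 and 69.3% on the first 7 genes, while the median member had 35 counts, 22 members had 50 or more and 9 had 100 or more. Without GB43496 the members held 0.752% of the spermatheca sum, 0.129% in ovaries, 0.0802% in eggs, 0.225% in testes and 0.12% in semen.

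**Figure D1:**
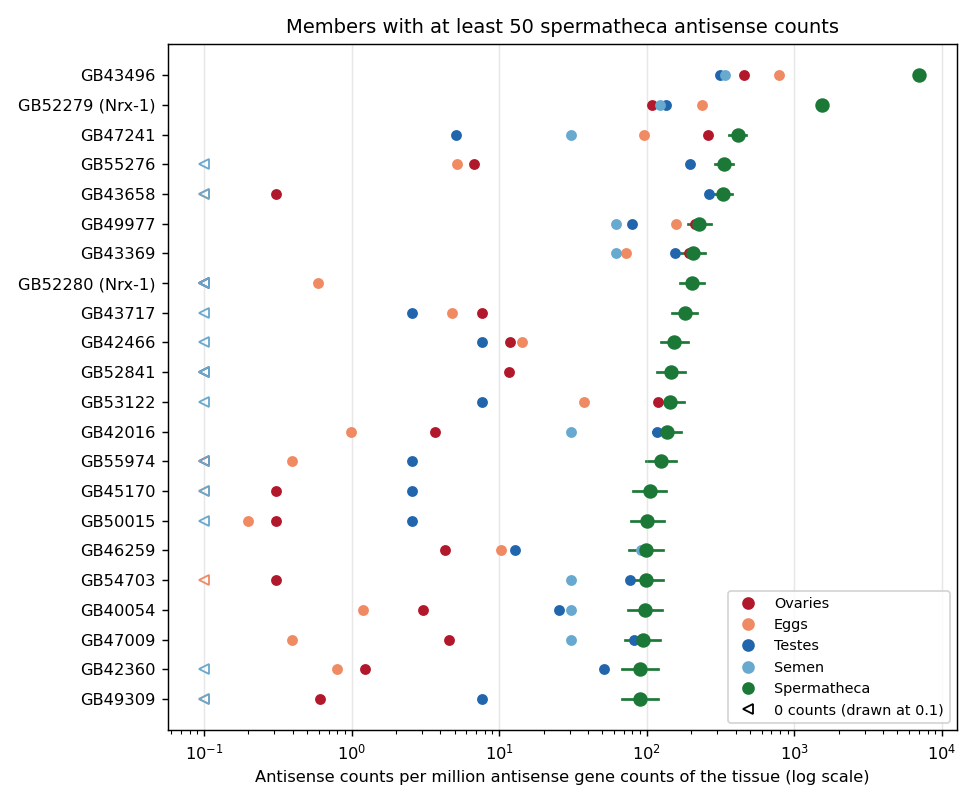
Antisense CPM (counts for every 1000000 antisense gene counts of the tissue, log scale) in the 5 tissues for the 22 members with at least 50 spermatheca counts, 1 pooled value per tissue, with the 95% Wilson interval of the spermatheca value as a line and counts of 0 as open triangles drawn at 0.1. GB43496 and the longer Nrx-1 model have the highest spermatheca values. By the rule the spermatheca point lies right of the other 4 tissues in every row. The margin is wide in some rows, as in GB52280 (340 times the next share), whereas in many others a testis or ovary point lies close.

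The member with the most counts was GB43496 (RefSeq symbol LOC412893), which lies on the minus strand of chromosome 11 at 6767626-6809421 of the Amel 4.5 genome. Its antisense counts were 1499 in ovaries, 3957 in eggs, 124 in testes, 11 in semen and 3874 in spermatheca. Spermatheca and eggs thus had nearly equal raw counts, and all 5 tissues had some. As counts for every 1000000 antisense gene counts of the tissue (CPM) this was 6997 in spermatheca, 784 in eggs, 459 in ovaries, 338 in semen and 316 in testes, so that the spermatheca share was 8.92 times that of eggs (95% interval 8.54 to 9.33 from counting error) and 20.7 times that of semen (11.6 to 37.1). On a scale set by the bulk of the genes (pairwise TMM, described below) the fold was 1.01 against eggs and 65.4 against semen. The lead over eggs thus depends on the scale. The reads were almost wholly on the antisense strand, with sense counts of 4, 27, 0, 1 and 1 in ovaries, eggs, testes, semen and spermatheca. No gene model lies on the other strand within GB43496, and the TEs within it accounted for 0.129% of its spermatheca antisense counts. The nearest models on either side, GB43495 and GB43529, had 1 and 0 spermatheca antisense counts. GB43497, which carries the same RefSeq symbol as GB43496 but lies at 6420214-6699672, had 14 in ovaries, 83 in eggs, 50 in testes, 1 in semen and 36 in spermatheca. Most antisense counts of LOC412893 were thus in the GB43496 span, and no other model in this stretch reached 100 antisense counts in any tissue.

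The members that can be placed in a known pathway by symbol were few. RefSeq symbols were found for 63 members, but only 5 of these were names rather than locus numbers, and 2 of the 5 were the gene models GB52279 and GB52280, both named Nrx-1. Neurexin is a presynaptic adhesion protein that binds neuroligins across the synapse. GB52279 spans chromosome 5, 1755808-2084061, on the minus strand and was the longest member at 328 kb. Its antisense counts were 354 in ovaries, 1189 in eggs, 53 in testes, 4 in semen and 859 in spermatheca, with 172, 158, 3, 1 and 14 in the sense direction. The spermatheca share was 6.58 times that of eggs (6.03 to 7.19) and 14.3 times that of ovaries (12.7 to 16.2). On the pairwise TMM scale described below, the folds were 0.748 and 2.1, so these leads depend on the scale. Most of these antisense reads had a counterpart in the sense table. GB52320, a model of 2171 bp without a RefSeq symbol that lies wholly inside GB52279 on the plus strand (1971471-1973641), had 213, 872, 0, 0 and 529 sense counts in the same order of tissues. That equals 61.6% of the antisense counts of GB52279 in spermatheca. In testes and semen GB52320 was at 0 while GB52279 had 53 and 4 antisense counts. The TE entries inside GB52279 together had 20, 8, 48, 4 and 1 counts along its antisense strand. Of these, ms11460 had 43 in testes and 1 in semen, and ms11469 had 5 and 3.

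The shorter Nrx-1 model, GB52280, lies next to it at 1741774-1749356 on the same strand. It had 0 antisense counts in ovaries, 3 in eggs, 0 in testes, 0 in semen and 112 in spermatheca. The reads of this model were thus nearly all in the spermatheca column. The spermatheca share was 340 times that of eggs, with a wide counting interval (114 to 1014), and at least 220-fold above ovaries when the 0 there is set to 3 counts, but against semen, where 3 counts would be 92.2 CPM, the bound was only 2.19-fold. Features on the plus strand in and beside GB52280 had the same tissue pattern. GB52317 (LOC406145, 1748544-1749366) had 106 sense counts in spermatheca and 0 in every other tissue, the DNA transposon entry ms11449 (1746529-1751938) had 114 and likewise 0 elsewhere, and GB52318 (LOC102655788, 1752546-1752968), which lies between the Nrx-1 models and overlaps neither, had 50 sense counts in spermatheca and 0 elsewhere. The sense counts of GB52317 came to 94.6% of the antisense counts of GB52280. Which bases the reads cover is not given in count tables, so whether they are the same reads was not tested.

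**Figure D2:**
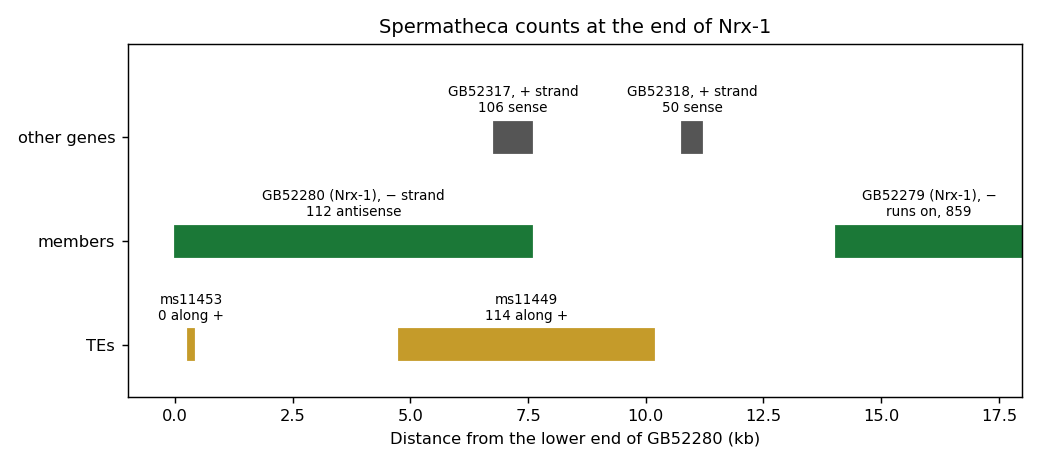
Map of the lower end of the Nrx-1 locus, drawn to scale as distance in kb from the lower end of GB52280, with plus-strand genes above, the minus-strand members in the middle and TEs below, each with its spermatheca counts (antisense for the members, sense for the other genes, along the plus strand for TEs). The 106 and 50 sense counts of GB52317 and GB52318 and the 114 of ms11449 lie on the strand opposite to Nrx-1, and GB52279 runs on beyond the right edge.

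The binding partners of neurexin were not among the members. The 4 neuroligin models (NLG-3, NLG-4 in 2 parts and NLG-5) had between 0 and 14 spermatheca antisense counts and none was a member (0 of 4). Among 16 nicotinic acetylcholine receptor models, which form the channels of fast cholinergic transmission in insects, 2 reached 20 spermatheca counts, but both had their largest share elsewhere. For nAChRa6 (GB43416) the antisense counts were 846 in ovaries, 1593 in eggs, 70 in testes, 0 in semen and 77 in spermatheca. For nAChRa4 (GB43271) they were 213, 207, 93, 0 and 22. The 12 models of amine receptors and Nmdar1 had at most 5 spermatheca counts. Over all 15313 gene models, 70 were members and 310 reached 20 spermatheca counts. The absence of members from groups this small is therefore no result about these groups.

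The other 3 members with names were EphR, Mrjp9 and CTL5, and all had low counts. EphR, the receptor tyrosine kinase for ephrins (GB41629, chromosome 14, 9417705-9446138), had 29 antisense counts in ovaries, 56 in eggs, 9 in testes, 1 in semen and 30 in spermatheca, and its second model, GB41630, had 0 in spermatheca. In EphR 28 of the ovary and 53 of the egg counts were matched by the TE entry ms33400 at the end of the gene, but only 6 of the spermatheca counts. The interval of its spermatheca share over that of testes ran from 1.14 to 4.9, and over that of semen from 0.304 to 10.2. CTL5, a C-type lectin, a family of sugar-binding proteins with roles in insect immunity (GB40445, chromosome 8, 2249830-2251508), had 3, 3, 8, 0 and 22 antisense counts. The ribosomal protein gene RpL35 overlaps CTL5 by 1091 bp on the other strand and had 5, 6, 11, 9 and 32 sense counts. Neither gene had a spermatheca share whose interval cleared all other tissues.

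Mrjp9 (GB55215, chromosome 11, 2624730-2628729) belongs to the major royal jelly proteins, a family that supplies most of the protein of larval food. It had 3 antisense counts in ovaries, 1 in eggs, 1 in testes, 2 in semen and 38 in spermatheca. The large retrotransposon derivative (LARD) entry ms26144, inside the gene at 2625969-2627591, had 3, 1, 1, 1 and 38 counts along the same strand, so the TE and gene counts were within 1 of each other in every tissue. Of the 12 royal jelly models, 10 had 3 or fewer spermatheca antisense counts, and those nearest to Mrjp9 in the gene row were Mrjp8 with 3 and Mrjp7 with 14. Low counts were common over all genes, of which 310 of 15313 reached 20. Because of the small semen column the spermatheca share of Mrjp9 was 1.12 times that of semen with an interval from 0.297 to 4.2.

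Genes on the other strand matched the antisense counts of a number of members. Of the 70 members, 41 (58.6%) overlapped a gene on the other strand, against 49.6% of the 240 other genes with at least 20 spermatheca counts. In 20 members (28.6%, against 27.5% of the other genes) such a gene lay wholly inside the member, where each of its sense reads is by position an antisense read of the member. It follows from the positions that the summed sense counts of these inside genes did not exceed the member's antisense count in spermatheca (0 of 20). They had a median of 51.2% of that count (11.9% in the 66 other genes), and reached 80% in 8 members (11.4% of the members, 5% of the other genes).

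The clearest of these was GB55276 (LOC102656429, chromosome 1, 15596099-15620801, minus strand), which has 3 Tret1 models on the plus strand inside it. Tret1 transports trehalose, the main blood sugar of insects. GB55276 had 22 antisense counts in ovaries, 26 in eggs, 77 in testes, 0 in semen and 185 in spermatheca, and the Tret1 models together had 22, 26, 72, 0 and 184 sense counts. The antisense profile of this member was therefore, within 5 counts in every tissue, the sense profile of Tret1. The spermatheca share was 1.7 times that of testes (1.31 to 2.22) and 49.6 times that of ovaries (32 to 77). GB55302 at 15614647-15620379 carried 123 of the 184 spermatheca sense counts.

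Of the other 7 members whose inside genes reached 80%, 4 had almost no antisense reads outside the spermatheca or had them in 1 further tissue. GB55974 (LOC725974, unplaced scaffold GroupUn86) had 0, 2, 1, 0 and 69 antisense counts and the inside gene GB55973 had 0, 2, 1, 0 and 67 sense counts. GB50015 (LOC100578924, chromosome 15, 8077362-8081726) had 1, 1, 1, 0 and 56, and GB50218 inside it had 1, 1, 1, 0 and 53. GB55930 (LOC409172, chromosome 4) had 2, 2, 0, 0 and 22, with 20 spermatheca sense counts on GB55921 and 0 in the other tissues. The 4th, GB52841 (LOC100578055, chromosome 8, 9328345-9342862), had 81 in spermatheca, 38 in ovaries and 0 elsewhere, and 3 inside genes with 36 and 81. The other members of this kind had reads in ovaries and eggs as well. GB43717 (no RefSeq symbol, chromosome 14, 5469415-5495348) had 25, 24, 1, 0 and 100, of which GB43727 (LOC408452) matched 88 in spermatheca but only 3 in ovaries and 5 in eggs. GB42466 (LOC551898, chromosome 7, 9463929-9514560) had 39, 72, 3, 0 and 85, with 31, 51, 2, 0 and 71 on its inside genes. GB43054 (LOC107964589, chromosome 6) had 18, 11, 5, 0 and 37, with 36 of the spermatheca counts matched.

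**Figure D3:**
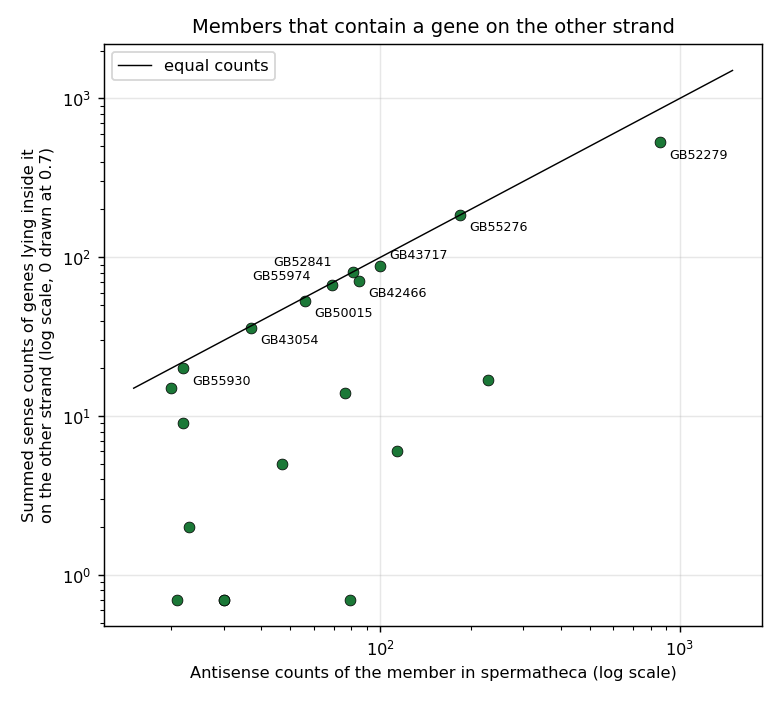
Summed spermatheca sense counts of the genes that lie wholly inside a member on the other strand, against the member's spermatheca antisense counts (both on log scales, 0 drawn at 0.7), for the 20 members with such a gene, where the line marks equal counts. The 8 members with at least 80% lie along the line from GB55930 (20 of 22) to GB55276 (184 of 185), and GB52279 lies below it with 529 of 859. No point lies above the line, which follows from the positions.

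Other members overlapped a neighbour on the other strand only in part, so their counts cannot be assigned by position. GB45170 (LOC100578547, chromosome 11, 11710717-11716408) had 1, 0, 1, 0 and 58 antisense counts, and GB45000, which overlaps it by 2693 bp, had 1, 0, 0, 0 and 38 sense counts. In GB53775 (LOC413168, chromosome 7) the antisense counts were 0, 1, 0, 0 and 38, and the neighbour GB53798, with an overlap of 2692 bp, had 1, 1, 1, 0 and 93 sense counts. GB53647 (LOC550808, chromosome 3) had 1, 0, 1, 0 and 30, beside 97 spermatheca sense counts on GB53732, of which 380 bp lie within it. GB46259 (LOC724262, chromosome 7) had 14, 52, 5, 3 and 55 antisense counts, and GB46257, which contains the whole of GB46259, had 21, 57, 5, 3 and 63 sense counts. A pair on chromosome 1, GB50340 (2892273-2893329) and GB50365 (LOC551450, 2888551-2893188), overlap each other by 916 bp on opposite strands, and both are members. GB50340 had 3, 1, 9, 0 and 48 antisense counts and GB50365 had 9, 5, 22, 1 and 62 sense counts. GB41609 (LOC727008, chromosome 14) had 3, 0, 14, 1 and 35, and Reck, named for a membrane protein that inhibits matrix metalloproteinases in vertebrates, had 3, 0, 19, 1 and 43 sense counts on the other strand. In all, the opposite-strand genes, inside or partly outside, had at least 80% of the member's spermatheca antisense count in 28 members (40%), against 26.7% of the 240 other genes.

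Single-position TE entries within a member matched its antisense counts less often. At least 1 such entry lay in 51 members (72.9%, against 73.8% of the 240 other genes), and their counts along the antisense strand were 0 in spermatheca in 44 members, counting those without an entry. They reached 80% of the antisense count in 5 members (7.14%), against 47 of the other genes (19.6%). TE entries that pool several genomic positions were left out of these sums, and 3 members and 72 of the other genes had one. The 5 members were GB47241, GB43658, GB52280, GB55255 and Mrjp9. In GB47241 (LOC551736, chromosome 11, 7768218-7968876) the antisense counts were 852 in ovaries, 486 in eggs, 2 in testes, 1 in semen and 229 in spermatheca, and ms27131, a terminal-repeat retrotransposon in miniature (TRIM) of 817 bp at 7828868-7829684, had 732, 432, 1, 0 and 202 of them. The spermatheca share of GB47241 was 1.59 times that of ovaries (1.37 to 1.84), but on the pairwise TMM scale its fold was 0.232. GB55255 (no symbol, scaffold GroupUn69) had 198, 2, 0, 0 and 42, and the DNA transposon entry ms42287 had 195, 2, 0, 0 and 41.

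GB43658 (LOC408343, chromosome 11, 3474219-3529426, plus strand) was a member with reads in testes and spermatheca and almost none in ovaries and eggs. Its antisense counts were 1 in ovaries, 0 in eggs, 103 in testes, 0 in semen and 182 in spermatheca. The LARD entry ms26309, 389 bp long at 3488946-3489334, had 0, 0, 102, 0 and 178 along the same strand. The antisense reads of this 55.2 kb gene were thus matched by 1 short element in both tissues. The spermatheca share was 1.25 times that of testes, and the interval of that ratio (0.984 to 1.59) included 1. On the sense strand GB43658 had 30, 137, 2724, 43 and 447 counts, so testes had the largest sense share, whereas spermatheca had the largest antisense share.

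In 38 members (54.3%, against 55.8% of the other genes) neither the opposite-strand genes nor the single-position TEs reached 80% of the antisense count, and 8 had neither kind of feature: GB54703, GB40054, GB43643, GB51808, GB46368, GB42706, GB44876 and GB54942. GB43496 and GB52279, with the most counts, were among the 38. Others were GB49977 (LOC412795, chromosome 15), with 693 antisense counts in ovaries, 795 in eggs, 31 in testes, 2 in semen and 126 in spermatheca, and GB43369 (LOC412101, chromosome 10), with 636, 367, 61, 2 and 114. Both of these had more raw counts in ovaries and eggs than in spermatheca and their spermatheca shares were 1.07 and 1.06 times those of ovaries. GB49977 also holds Mariner entries of the kind that pools several positions. In GB43369 all TE entries together matched 78.1% of the spermatheca count, most of it on ms23847, with 53 counts in testes and 50 in spermatheca, and on ms23884, with 396 in ovaries, 274 in eggs and 30 in spermatheca. GB53122 (LOC411050, chromosome 4) had 392, 190, 3, 0 and 79. GB42016 (LOC413548, chromosome 5) had 12, 5, 46, 1 and 76, GB47009 (LOC412243, chromosome 3) had 15, 2, 32, 1 and 52, and GB54703, a model of 123 bp on an unplaced scaffold, had 1, 0, 30, 1 and 55. These last 3 had testes as the next tissue, with ratios of 1.17, 1.15 and 1.3. In GB40054 (LOC413550, chromosome 13) the counts were 10, 6, 10, 1 and 54, and in GB54942 (LOC100577142, chromosome 1, 26743747-26748488) they were 0, 0, 0, 0 and 20. GB54942 was the single member with 0 in every other tissue, but its spermatheca share of 36.1 CPM lies below the 92.2 CPM that 3 counts would be in semen.

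The margin by which the spermatheca share led was small in most members. Over the 69 members with a count in another tissue, the spermatheca share was a median of 1.69 times the next highest, 16 members had a ratio of 1.2 or less, 38 had a ratio over 1.5 and 18 a ratio over 5. The next highest share was in testes for 34 members, in ovaries for 15, in semen for 15 and in eggs for 5. In semen a single count is 30.7 CPM, close to the 36.1 CPM of the 20 spermatheca counts that the rule requires, and 40 members were at 0 in semen. Wilson intervals of the spermatheca share lay above those of eggs in 70 members, of ovaries in 63, of testes in 36 and of semen in 8. Only GB43496, GB52279, GB47241, GB55276, GB52280, GB43717 and GB42466 lay above all of them, and for the other 63 members the interval overlapped that of at least 1 other tissue. The rule chose the members by these same shares, and no share over all genes is given beside these counts. They describe the margin only and are no result about the members. The members nearest to the share threshold were GB43369, GB40351, GB49977, GB46259 and GB51276, with ratios of 1.06, 1.06, 1.07, 1.08 and 1.09, and the genes just outside it were GB53769 (0.992), GB54012 (0.972), GB54483 (0.971), GB46342 (0.912) and GB53511 (0.91). At the count threshold, GB55987, GB54859, GB48375, GB53908, GB51276 and GB54942 had 20 spermatheca counts, and 9 genes had the largest share in spermatheca with 19, namely GB53582, GB55578, GB49947, GB43216 and GB51972, with ratios to the next share of 1.12, and GB45459, GB41415, GB45009 and GB52521, with larger ratios of up to 6.73.

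**Figure D4:**
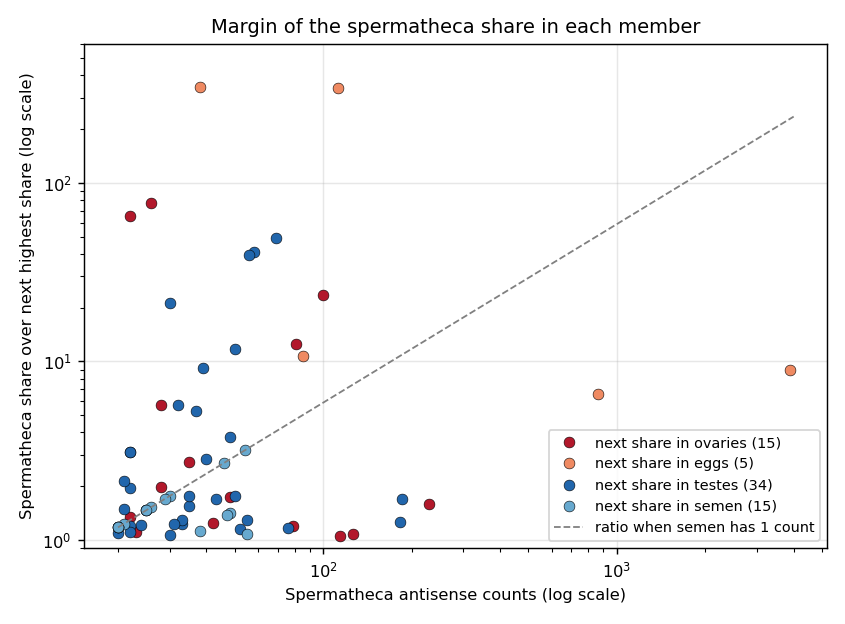
Spermatheca share over the next highest share (log scale) against spermatheca antisense counts (log scale) for the 69 members with a count in another tissue, coloured by the tissue with that next share. Most points lie under a ratio of 5, the 15 members next to semen lie on or below the dashed line that marks 1 semen count, and GB52280 and GB53775 lie highest at 340 and 346.

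How many members were higher in spermatheca depended on the scale. The shares divide by column sums, and these were 5.9 times larger in ovaries and 9.11 times larger in eggs than in spermatheca. Single genes outside the set weigh heavily in these sums. GB43331 alone had 383894 CPM in spermatheca and 540168 in semen, against 769 in ovaries and 1246 in eggs. With the genes that the rule leaves out dropped from the sums, 103 genes met its thresholds, 69 of the members among them. The TMM method sets the scale from the bulk of the genes. Fitted to spermatheca and 1 other tissue at a time, it put the ratios at 0.864 and 1.04, a difference of 2.77 and 3.14 on the log2 scale. Run on all 5 columns with spermatheca as the reference, TMM gave effective totals of 3461585.7 for ovaries, 3939722.5 for eggs and 458308.8 for spermatheca. These were much nearer to the column sums. That run used only genes whose mean share over the 5 tissues times the semen sum, the smallest, was at least 5. Fewer low-count genes could therefore enter it than the pairwise runs. With these effective totals 96 genes met the thresholds of the rule, and all 70 members were among them. No folds were computed on that scale, so the TMM folds against ovaries and eggs depend on which genes set the scale. On the TMM scale and at a fold over 5, 35 of 70 members were higher in spermatheca than in ovaries (6.5% of 1615 genes compared), 42 than in eggs (8.96% of 1640), 35 than in testes (7.29% of 1935) and 11 than in semen (4.84% of 1321). Because counts under 3 were set to 3, the fold was a bound in 25, 32, 17 and 67 members, in the same order. A member with 0 semen counts needed 80.8 spermatheca counts to be called, so the number against semen follows spermatheca depth. The rule used the antisense counts, so nothing follows from the excess over all genes. On the same scale 6 members were over 5-fold lower in spermatheca than in ovaries: GB49977, GB43369, GB53122, GB55255, GB41094 and GB43245. GB49977 was also lower than in eggs. In raw counts, 57 members were higher in spermatheca than in ovaries and 54 than in eggs, and all 70 were higher than in testes and than in semen. For the lower members and for the raw counts no share over all genes is given, so these numbers only describe the members.

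The members at the ends of these TMM folds were these. Against ovaries the smallest were GB43369, GB49977 and GB41094 (0.155, 0.157 and 0.163 times), and the largest were GB43658, GB52280 and GB55974, which had 1, 0 and 0 ovary counts. Against eggs the smallest were GB49977, GB43245 and GB43369 (0.164, 0.245 and 0.322), and the largest GB43658, GB52280 and GB52841, with 0, 3 and 0 egg counts. Against testes the smallest were GB40351, GB51276 and GB42706 (1.78, 1.83 and 1.87), and the largest GB47241, GB52280 and GB43717, with 2, 0 and 1 testis counts. Against semen the largest were GB43496 and GB52279 (65.4 and 39.9), followed by GB47241 with 1 semen count. The smallest against semen, GB55987, GB54859 and GB48375, each had 1 semen count and 20 in spermatheca. GB52280 was thus near the top against ovaries, eggs and testes alike, and GB43369 and GB49977 near the bottom against both ovaries and eggs.

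Sense counts, which the rule did not use, lay on both sides of no change. Over the members with at least 5 sense counts in either tissue, the median log2 fold of spermatheca on the TMM scale was 0.06 against ovaries, -0.26 against eggs, 0.20 against testes and 0.42 against semen, where over all genes it was -0.14, 0.03, 0.05 and -0.21. The fold was a bound, with a count under 3 set to 3, in 23 of 52, 26 of 53, 14 of 57 and 42 of 52 members. The medians depend on that setting, above all the median against semen. Over 5-fold higher in spermatheca than in ovaries were 6 of 52 members (2.5% of all genes compared), and 9 were lower (10.1%). The same counts were 8 higher and 7 lower of 53 against eggs (4.54% and 8.63% of all genes), 4 higher and 6 lower of 57 against testes (5.49% and 7.83%), and 3 higher and 2 lower of 52 against semen (4.6% and 4.73%). Among the 25 members with at least 20 spermatheca sense counts, the largest sense share was in spermatheca in 8 (32%), near the 33.7% of all 1804 such genes, in semen in 9 and in testes in 8. None had it in ovaries or eggs (0 of 25). The shares of all genes led by semen, testes, ovaries or eggs are not given, so these counts are no result about the members.

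The 8 members with the largest share in spermatheca in both directions were GB47009, GB42360, GB49309, GB43054, GB43245, GB50974, GB55930 and GB50365. GB49309 (LOC726065, chromosome 12, 8101227-8123645) had 2 antisense counts in ovaries, 0 in eggs, 3 in testes, 0 in semen and 50 in spermatheca, and 5, 3, 27, 4 and 85 sense counts. No gene lies opposite to it. GB55930 had 22, 6, 22, 43 and 317 sense counts, with equal shares in spermatheca and semen at 367 sense CPM. GB47009 had 275, 716, 136, 61 and 471, which is 546 sense CPM in spermatheca and 520 in semen. GB43245 (LOC724389, chromosome 6), which contains the alpha-glucosidase genes Hbg3 and AGLU2 on its other strand, had 4, 1, 21, 9 and 85 sense counts but 96, 93, 5, 0 and 22 antisense counts. Its sense reads were thus highest in spermatheca while its antisense raw counts were highest in ovaries. In GB42360 (LOC724311, chromosome 6) antisense and sense spermatheca counts were nearly equal, at 50 and 48.

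Other members with many sense reads had their largest sense share in testes or semen. GB53783 (LOC408944, chromosome 7) had 33, 61, 3590, 30 and 201 sense counts and 4, 0, 18, 1 and 43 antisense counts. Together with GB43658 it carried most of the members' 8097 testis sense counts. GB45688 (LOC409207) had 77, 140, 127, 40 and 150, GB43643 (LOC408449) had 2, 7, 37, 22 and 133, GB51809 (LOC550645) had 148, 86, 131, 39 and 122, and GB44726 (LOC726060) had 28, 14, 17, 27 and 119, all with the largest sense share in semen. Their raw sense counts were lower in semen than in spermatheca, so these shares rest on the small semen column. On the TMM scale none of them was over 5-fold lower in spermatheca than in semen. GB55974 had 280, 302, 170, 9 and 83, and testes had the largest share.

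**Figure D5:**
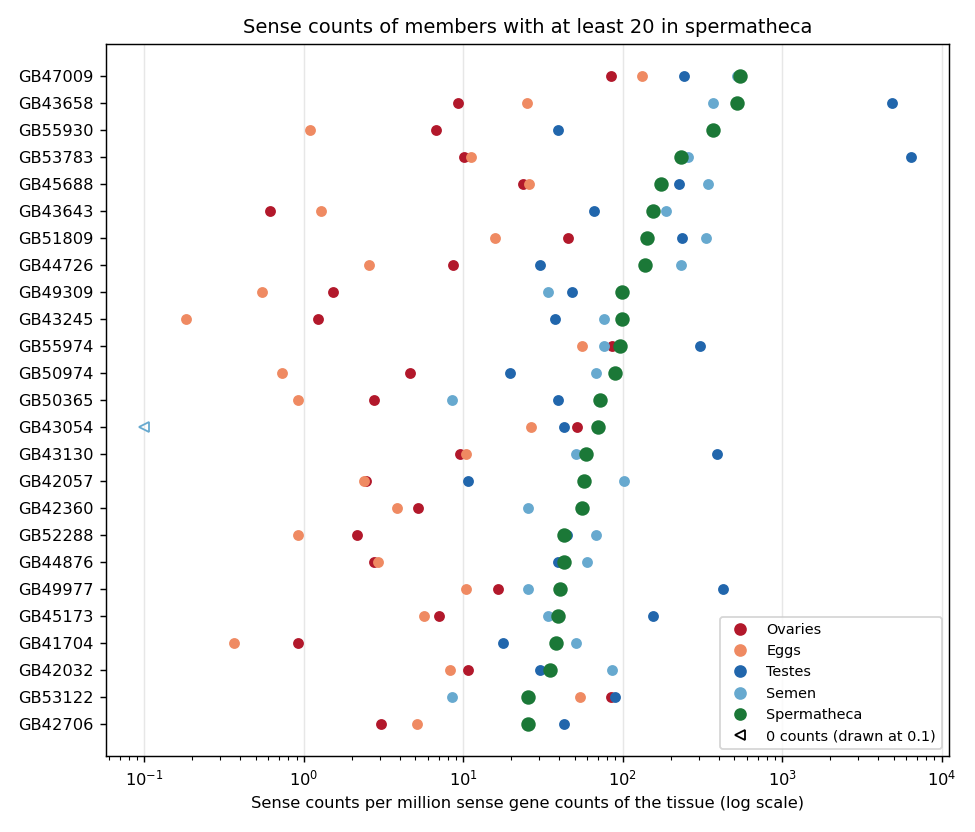
Sense CPM (counts for every 1000000 sense gene counts of the tissue, log scale) in the 5 tissues for the 25 members with at least 20 spermatheca sense counts, 1 pooled value per tissue, ordered by the spermatheca value. Testes lie far to the right in GB53783 and GB43658, semen lies near or right of spermatheca in many rows, and ovaries and eggs lie mostly to the left.

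The strand balance of the members differed between tissues, and single genes set much of it. Antisense reads made up 72% of the members' own counts in spermatheca (71.2 to 72.8), 72% in ovaries, 74.3% in eggs, 11.1% in testes and 10.1% in semen (7.73 to 13). Over all genes the antisense percentages were 39.1, 50, 48, 41.2 and 21.7 in spermatheca, ovaries, eggs, testes and semen. The high spermatheca value is in part the rule's doing, since it chose genes by spermatheca antisense counts, and GB43496 alone moved it. Without this gene the antisense part was 57.1% in spermatheca, 65.5% in ovaries, 59.6% in eggs, 9.82% in testes and 8.06% in semen. The testis value rested on GB53783 and GB43658, which held 6314 of the members' 8097 testis sense counts, and without both genes, a choice made after seeing the data, it was 33.2%, with 75.9% in spermatheca, 72.5% in ovaries, 75.6% in eggs and 11.6% in semen.

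The members were spread over the genome. They lay on all 16 chromosomes, with 10 on chromosome 1, 9 each on chromosomes 5 and 11, and 4 on unplaced scaffolds, and had a median length of 20.3 kb against 18.1 kb for the 240 other genes. The only run of 3 members less than 100 kb apart was on chromosome 5 between 6925035 and 7090040, with GB42057, GB42065 and GB42032. GB42057 (LOC102655904) had 1 antisense count in ovaries, 2 in eggs, 5 in testes, 0 in semen and 22 in spermatheca, GB42065 had 13, 14, 5, 1 and 25, and GB42032 (LOC413169) had 19, 30, 8, 1 and 29. The latter 2 each overlap a gene on the other strand with 27 and 34 spermatheca sense counts. A pair of models of 1 RefSeq gene, GB51808 and GB51809 (LOC550645, chromosome 1), were both members, with 0, 0, 12, 0 and 25 and with 2, 0, 7, 1 and 26 antisense counts.

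Of the 15 members not yet described, all with 21 to 48 spermatheca antisense counts, some repeated the patterns above. GB54176 (LOC408458, chromosome 14) had 29 antisense counts in ovaries, 30 in eggs, 0 in testes, 0 in semen and 28 in spermatheca, and GB54130, which overlaps it by 2494 bp on the other strand, had 249, 426, 11, 1 and 336 sense counts. GB49768 (LOC551914, chromosome 2) had 5, 2, 4, 0 and 32, beside 11, 7, 24, 0 and 125 sense counts on GB49799. No gene lay opposite to GB41704 (LOC727232, chromosome 14), which had 2, 1, 0, 0 and 26 and whose spermatheca share was 76.7 times that of ovaries (20.2 to 292). GB51141 (LOC726017, chromosome 10) had 7, 2, 3, 0 and 39, also with no opposite gene. GB51389 (LOC412859, chromosome 5) had 163, 80, 1, 1 and 48, more raw counts in ovaries and eggs than in spermatheca. The others were GB55526, GB42462, GB43130, GB49069, GB52288, GB45173, GB45530, GB49084, GB55383 and GB45189.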

How the data were processed

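The deposited values were raw counts of putative piRNA reads, made by the authors with the featureCounts command of Rsubread on genes and TEs of Amel 4.5 after removing unmapped reads, other known RNAs and reads outside 26 to 31 nt. The methods name CLC Genomics for mapping and the submitters' processing notes Bowtie 1.2.3. Whether the 1 column per tissue sums or averages libraries, and how multi-mapping reads were counted, are not given in the sources used here. The planned tests between libraries were therefore not run.

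Shares were computed in Python 3.11.15 (pandas 2.3.3, numpy 2.4.6, SciPy 1.17.1), with 95% Wilson intervals. Folds used TMM factors of edgeR 4.0.16 (R 4.3.3), estimated on genes whose mean share times the smaller total was at least 5, with genes of at least 5 counts in either tissue compared at a fold over 5. In counts of members and medians of folds, counts under 3 were set to 3, and genes at 3 or fewer in both tissues were left out. DESeq2 1.42.0 size factors, column sums and unscaled counts were alternatives. Tested on simulated data with 10-fold changes, the step recovered 103 of 103 antisense changes against ovaries, eggs and testes, and 86 of 103 (83.5%) against semen. Apart from the changed genes, both simulated columns were drawn from the spermatheca proportions. The simulation therefore cannot show whether the scale holds between tissues whose reads differ in composition. Opposite-strand genes and TEs share at least 1 base with the gene.

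Members and lists were chosen with earlier results of these data known. Genes named are the 20 members with the most antisense counts, the 3 largest and smallest folds per tissue, the 10 with the most sense counts, those at the thresholds and in runs of 3 within 100 kb, and families by symbol. Planned groups by product name could not be formed, since the reference (Amel_HAv3.1, used for names only) pairs IDs with symbols. Members with matching opposite-strand genes or TEs were named after their values were seen. No sequence is shown, as none was given for this assembly.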

Additional observations from a re-analysis of the deposited data

How the results depend on the processing

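Counts of members over 5-fold higher in spermatheca moved by more than 1.5 times under these settings. With column sums as the scale, the antisense count against ovaries went from 35 to 59 and against semen from 11 to 2, and the sense counts went from 6 to 34 against ovaries, from 8 to 37 against eggs, from 4 to 2 against testes and from 3 to 0 against semen. DESeq2 size factors gave 17 antisense members against ovaries and 27 against eggs. Unscaled counts gave 70 antisense members against semen, and 13 sense members against ovaries and 22 against semen. Without a filter on low counts the antisense count against semen was 33. At a fold over 2 the antisense counts were 65 against testes and 39 against semen, and the sense counts 15, 18, 16 and 15 against ovaries, eggs, testes and semen. At a fold over 10 the antisense counts were 13, 23, 22 and 5, and the sense counts 2, 5, 1 and 0. Of the rule, a minimum of 10 spermatheca counts gave 156 genes, a minimum of 50 gave 22, and ovaries, spermatheca and semen alone gave 111. Members with the largest sense share in spermatheca went from 8 to 14 without a count minimum and to 13 with those 3 tissues. The antisense part of the members' spermatheca counts was 57.1% without GB43496, 76.1% in the first 50 members and, in an alternative chosen after seeing the data, 75.9% without GB53783 and GB43658. The cause of these moves was not tested, except that a stricter fold or minimum passes fewer genes by construction. The semen column, with 32551 antisense counts, limits every statement against semen. No paired analysis was possible because the tables hold 1 pooled column per tissue, so the replicate block and leaving out each replicate were not run.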
